A study of Mus musculus with 2 samples.

Results

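The genes described here are noncoding RNA genes that mouse embryonic stem cells use or that carry small RNAs inside them. They were chosen by name: every Platr gene, every Snhg gene, every gene whose symbol starts with Mir and ends in hg, and Neat1, Malat1, Gas5, Tug1, Miat, Pvt1, Norad, Lncenc1 and Firre. The rule found 65 of the 55414 gene identifiers in the deposited count tables, 29 Platr genes, 16 small nucleolar RNA (snoRNA) host genes with Gas5 among them, 12 microRNA host genes and 8 others, on 19 chromosomes. The study sequenced RNA from wild-type R1E cells, a mouse embryonic stem cell line kept in serum medium with leukaemia inhibitory factor, which holds such cells in the undifferentiated state. One culture was left untreated (0 h) and the other received 0.5 µM Adriamycin (doxorubicin), a topoisomerase II poison that breaks DNA, for 8 h. Each condition has 1 library, so no difference given here has a replicate check, and the drug cannot be told apart from the hours in culture or from differences between the cultures.

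Long noncoding RNAs are transcribed and usually spliced like messenger RNAs but are not known to give a protein. The Platr genes (pluripotency-associated transcripts) were named in mouse embryonic stem cells for transcripts that are lost when the cells differentiate. Snhg genes and Gas5 keep snoRNAs, the guides of ribosomal RNA modification, in their introns. Many of their spliced RNAs start with a pyrimidine run like that of ribosomal protein messages and are destroyed by nonsense-mediated decay when ribosomes read them. MicroRNA host genes are cut by Drosha to release the hairpins of microRNAs, so a host's level and the level of its microRNAs need not move together.

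Mature microRNAs of 3 of the 4 measured microRNA hosts are shown first, since all 4 hosts were at least 2-fold apart between the libraries. The remaining host, Mir124a-1hg, is not shown because no sequence of its microRNAs was matched. The sequences are RefSeq's, on build GRCm38.p6, with the seed (bases 2 to 8, which pair with targets) in capitals. Mir17hg holds 6 microRNA genes in its exon, Mir22hg holds miR-22, and Mir9-3hg holds 1 of the miR-9 genes.
miR-17-5p: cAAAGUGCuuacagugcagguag
miR-20a-5p: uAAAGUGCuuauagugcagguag
miR-18a-5p: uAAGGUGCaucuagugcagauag
miR-19a-3p: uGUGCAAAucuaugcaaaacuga
miR-19b-3p: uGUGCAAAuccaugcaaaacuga
miR-92a-3p: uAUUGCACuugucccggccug
miR-22-3p: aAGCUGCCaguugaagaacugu
miR-9-5p: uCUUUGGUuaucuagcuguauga
By seed, miR-17-5p and miR-20a-5p form one family and miR-19a-3p and miR-19b-3p another, while the seeds of miR-18a-5p, miR-92a-3p, miR-22-3p and miR-9-5p are each their own among these 8. The libraries did not measure the mature microRNAs, and the 6 microRNA genes inside Mir17hg had 0 reads in both. Those genes lie in its exon, and a read that touches 2 genes was not counted, so the counts of 0 say nothing of their level.

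The starts of 7 snoRNA hosts are shown because the members of this class differed among themselves. Each window has 20 bases on either side of a RefSeq start on GRCm38.p6, in the sense direction. Its longest run of C or T within 15 bases of the start is in capitals. Where a gene had several starts, the one with the longest run was taken, which favours genes with more starts. The first 3 belong to the hosts that were at least 2-fold lower after Adriamycin.
Gas5 (chr1:161035146-161035185, + strand): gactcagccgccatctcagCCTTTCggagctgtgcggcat
Snhg5 (chr9:88522878-88522917, - strand): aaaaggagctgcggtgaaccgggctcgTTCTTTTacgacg
Snhg14 (chr7:60450158-60450197, - strand): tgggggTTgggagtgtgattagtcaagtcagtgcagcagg
Snhg20 (chr11:117076763-117076802, + strand): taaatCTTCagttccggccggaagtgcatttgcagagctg
Snhg1 (chr19:8723467-8723506, + strand): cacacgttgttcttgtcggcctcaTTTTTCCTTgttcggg
Snhg12 (chr4:132308658-132308697, + strand): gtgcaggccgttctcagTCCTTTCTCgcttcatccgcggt
Snhg8 (chr3:123508317-123508356, - strand): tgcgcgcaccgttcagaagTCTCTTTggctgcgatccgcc
A run of at least 7 pyrimidines lay within 15 bases of the start taken in 8 of the 15 hosts with a RefSeq window (53.3%). It did so in 34 of 61 ribosomal protein genes (55.7%) and in 5747 of all 27025 genes with a window (21.3%). Among the 3 hosts that were at least 2-fold lower, Snhg5 has such a run of 7, Gas5 has a run of 6 and Snhg14 one of 2. The starts shown were not matched to the starts of the counted genes. That of Snhg14 lies upstream of its counted start, 59625507 on GRCm39, by more than the builds differ at Mir9-3 on the same chromosome. Its run therefore cannot be set beside its ratio. Snhg1 and Snhg12, with runs of 9, Snhg16, with 8, and Snhg8, with 7, were not 2-fold lower. Nor were Snhg17, with a run of 6, Snhg15 and Snhg20, with 4, and Snhg11, with 3. Snhg18, Snhg9 and Snhg10, with runs of 10, 9 and 8, and Snhg3, with 5, were under the level at which genes are called measured below. A run of these letters is a description of the window and not evidence of how the RNA is translated.

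The untreated library held 41820999 reads assigned to genes and the Adriamycin library 38561292. Counts were scaled to CPM, reads per 1e6 assigned reads, with trimmed-mean (TMM) factors, and a gene is called measured where its CPM averaged at least 1 across the pair of libraries. Ratios are log2 of Adriamycin over untreated, with 0.5 read added. Many are given with a 95% interval, which covers counting error only and is too narrow if both reads of a pair were counted. A gene is called higher or lower where it was at least 2-fold apart, a rule of size and not a test. The 8 embryonic stem cell markers checked, among them Pou5f1 and Nanog, all had 276 to 1025 CPM untreated and 158 to 947 CPM after Adriamycin. Of 10 fibroblast markers, looked at because such cells are used as feeders, Col3a1, Postn, Dcn and Lum were at 0 in both libraries and the list summed to 44.1 CPM untreated and 131 CPM after Adriamycin. Fbln2, Col1a1 and Bgn were higher, and the part of such cells in the values below was not tested. Fewer cells of a type and less RNA per cell cannot be told apart in these bulk libraries.

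Of the 65 genes, 43 were measured, 22 were under that level and 5 of those 22 had 0 reads in both libraries. After Adriamycin 2 measured genes were higher (4.65%), Neat1 and Mir22hg, where 17.0% of all 14871 measured genes were higher. Lower genes numbered 8 (18.6%), where 6.95% of all measured genes were: Mir124a-1hg, Platr23, Snhg5, Platr22, Snhg14, Mir9-3hg, Mir17hg and Gas5. The other 33 lay within 2-fold. The median log2 ratio was -0.29 for the 43, with 33 below 0 and 10 above it. For all measured genes it was -0.03, with 7678 below 0 and 7193 above it. With libraries scaled by total counts 28 of the 43 lay below 0 and 15 above it. The genes' combined share of assigned reads was 0.181% untreated and 0.176% after Adriamycin, and Lncenc1 gave the most reads of any of them.

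**Figure D1:**
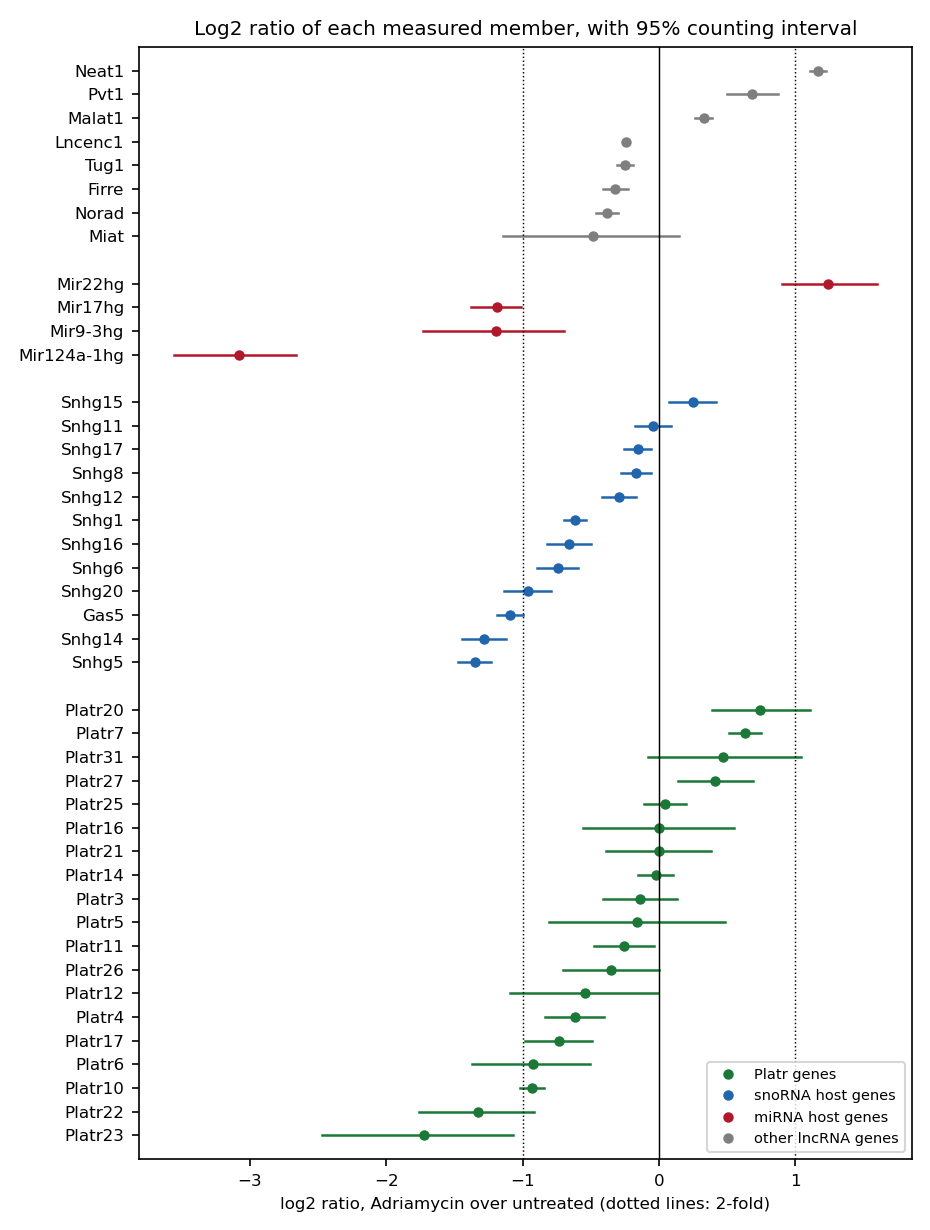
Log2 ratio of Adriamycin over untreated for each of the 43 measured genes (points, coloured by class), with 95% counting intervals (bars) and dotted lines at 2-fold. Neat1 and Mir22hg lie to the right of the upper line and 8 genes to the left of the lower one, with Mir124a-1hg farthest out at -3.08.

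The other long noncoding RNA genes of the annotation lay to the other side of all genes. Of 571 that were measured, 142 were higher (24.9%) and 53 lower (9.28%), with a median of 0.28. They were also weaker: their median level was 2.17 CPM, against 14.6 CPM for the 43 genes described here. At a mean of at least 5 CPM the comparison held 30 genes with 1 higher, 5 lower and a median of -0.27, and 123 other long noncoding RNA genes with 21 higher, 6 lower and a median of -0.01. All 11371 genes at that level had 12.5% higher, 6.16% lower and a median of -0.09. These are counts of genes in the same pair of libraries, and whether the lists differ was not tested.

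**Figure D2:**
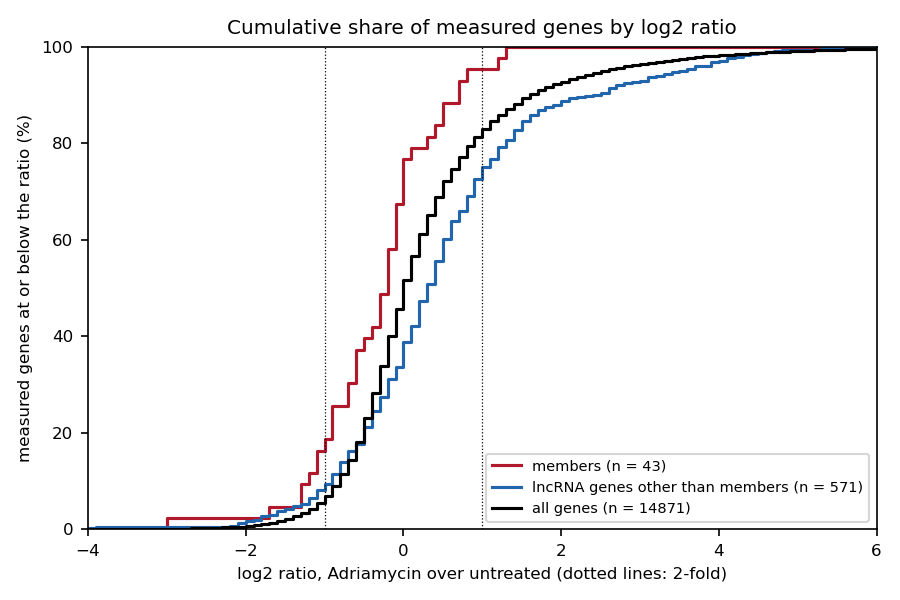
Cumulative share of measured genes (y axis, %) at or below each log2 ratio (x axis) for the 43 genes described here, 571 other long noncoding RNA genes and all 14871 measured genes, with dotted lines at 2-fold. The curve of the 43 lies left of the curve of all genes over most of the range, and that of the other long noncoding RNA genes lies to its right from a ratio of -0.6 upwards over most of the range.

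Levels are compared between genes per kilobase of exon. Lncenc1, a nuclear RNA linked in mouse embryonic stem cells to naive pluripotency and glycolysis, was the highest by far. It lies at chr13:97571478-97633515 (GRCm39, + strand, in 6 exon blocks) and had 30597 reads untreated and 26379 after Adriamycin, or 233 and 197 CPM per kb. Its mean of 215 CPM per kb ranked 103 among the 14871 measured genes. Its log2 ratio was -0.24 (-0.27 to -0.22), a difference beyond counting error and well within 2-fold. Snhg8 followed with 44.2 and 39.3 CPM per kb, then, in the order of their means, Platr10 with 42.6 and 22.3, Platr7 with 17.9 and 27.7, and Platr11 with 24.4 and 20.5. By its mean Snhg8 ranked 1275, Platr10 1772, Platr7 2603 and Platr11 2650, so Lncenc1 alone stood near the top of the whole transcriptome. At the other end, Miat, known from nuclear bodies of neurons and retina, had 0.138 and 0.0982 CPM per kb and ranked 14818.

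**Figure D3:**
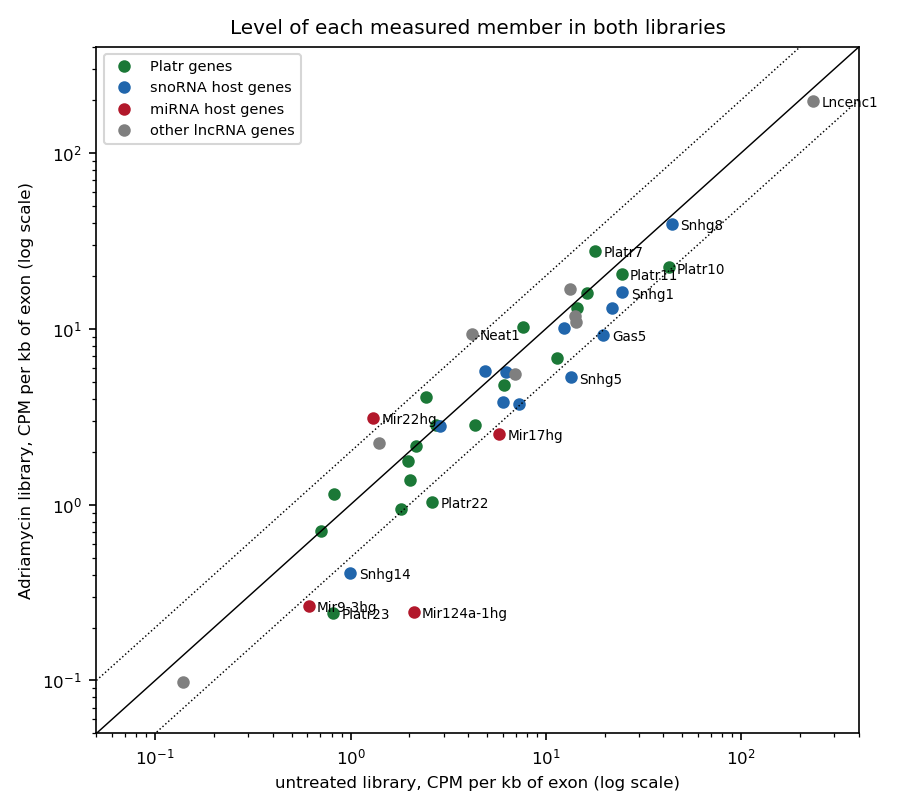
Level of each measured gene (points, coloured by class) in the untreated library (x axis) and the Adriamycin library (y axis), both in CPM per kb of exon on log scales, with the line of equality and dotted lines at 2-fold. Lncenc1 stands alone at the top right, and Mir124a-1hg lies farthest below the lower 2-fold line.

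Among the Platr genes, 19 of 29 were measured. None was higher, where 17.0% of all measured genes were. Platr22 and Platr23 were lower (10.5%, against 6.95% of all measured genes) and 17 lay within 2-fold, with a median of -0.16. Both lower genes lie on chromosome 1 and have the same nearest measured protein-coding gene, Zfp281, a zinc finger factor of the stem cell network. Platr23 (chr1:136549836-136552388, GRCm39, - strand) had 79 reads untreated and 24 after Adriamycin, a log2 ratio of -1.73 (-2.47 to -1.07), 3.31-fold lower. Platr22 (chr1:136623949-136653880, + strand) had 168 and 68 reads, with a log2 ratio of -1.33 (-1.76 to -0.92), 2.51-fold lower. The intervals of the 2 genes overlap widely, and at these counts Platr22 may lie inside 2-fold. Zfp281 starts 251 bases from the start of Platr23 on the opposite strand and had 4722 and 3766 reads, with a log2 ratio of -0.35 (-0.42 to -0.29), nearer 0 than either.

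Platr10, the strongest Platr gene per length, came next. It had 2954 reads untreated and 1580 after Adriamycin, a log2 ratio of -0.93 (-1.02 to -0.84). Platr6 had 131 and 70 reads at the same ratio of -0.93 with a wider interval of -1.37 to -0.50. Both were just inside the 2-fold limit, and Gas5, described below, was the gene just outside it. Platr17 had 364 and 223 reads (-0.73), and Platr4, whose loss in mouse embryonic stem cells impairs mesoderm formation, had 443 and 294 (-0.62). The annotation used for gene types lists Platr17 and Platr25 as protein coding, and also Snhg11, counted below with the snoRNA hosts.

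The remaining Platr genes named here had ratios near or above 0. Platr14, whose depletion alters differentiation genes in mouse embryonic stem cells, had 1025 reads untreated and 1028 after Adriamycin (-0.02, -0.15 to 0.10). Platr7 had 950 and 1499 reads, with a log2 ratio of 0.63 (0.51 to 0.75). Platr20 had 104 and 178 reads, with a log2 ratio of 0.74 (0.39 to 1.11), the highest of its class and within 2-fold. The gene that starts 55 bases away from it on the opposite strand, Gm12569, had 168 and 263 reads (0.62). Platr27 with 192 and 261 reads (0.41, 0.14 to 0.69) was also above 0 beyond counting error, whereas the interval of Platr31, with 48 and 68 reads, reached from -0.08 to 1.04. In all, 14 of the 19 lay below 0 and 5 above it. With total counts 10 lay below 0 and 9 above it, and the class median was -0.02.

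The pluripotency protein genes were lower by more at the median. All 10 factors listed were measured and below 0, and the median was -1.14. Of the 10, 6 were lower (60.0%, against 6.95% of all measured genes). The regulator Prdm14 had 2634 reads untreated and 423 after Adriamycin (-2.66), and Lin28a, which blocks let-7 processing, had 15497 and 2615 (-2.59). The naive-state marker Zfp42 had 23174 and 6395 reads (-1.89), and the homeobox factor Nanog had 23059 and 7436 (-1.66). No measured Platr gene reached the ratio of Prdm14, Lin28a or Zfp42, and only Platr23 reached that of Nanog. These were the 4 factors farthest from no difference. Another 4 factors lay within 2-fold: Klf4 (-0.62), Tbx3 (-0.54), Pou5f1 (-0.51) and Sox2 (-0.42). Platr10, Platr6, Platr17, Platr22 and Platr23 lay below each of those within 2-fold. They were picked for mention after their values were seen.

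The snoRNA hosts formed the class with the most even direction. Of 16, 12 were measured, none was higher and 3 were lower (25.0%), where 17.0% and 6.95% of all measured genes were. Of the 12, 11 lay below 0, with a median of -0.64, where 7678 of all 14871 measured genes lay below 0. The class was set by name. Of its members, 7 measured ones hold a gene named as a snoRNA: 1 was lower (14.3%), with a median of -0.62. Snhg5 and Snhg20 hold no gene that the annotation types as a snoRNA, but 2 and 1 short genes without a symbol. Snhg5 (chr9:88377321-88405615, GRCm39, - strand, 3 exon blocks) had 1949 reads untreated and 779 after Adriamycin, a log2 ratio of -1.35 (-1.47 to -1.23), 2.55-fold lower. Its nearest measured coding gene, Syncrip, which encodes an RNA-binding protein and lies 12694 bases away on the same strand, had 9047 and 3495 reads and nearly the same ratio, -1.40 (-1.46 to -1.34).

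Gas5 (chr1:160861992-160866109, + strand), named for its accumulation in growth-arrested mouse cells, had 2949 reads untreated and 1411 after Adriamycin. Its log2 ratio was -1.09 (-1.18 to -0.999), 2.13-fold lower, and it came inside 2-fold at -0.95 when libraries were scaled by total counts. It holds 9 annotated snoRNA genes. Its neighbour Zbtb37, on the opposite strand, had 444 and 534 reads, with a log2 ratio of 0.24 (0.05 to 0.42), so the 2 genes lay on different sides of 0. SnoRNA and other small genes inside Gas5 take 17.8% of its exon bases, and a read that touches 2 genes was not counted for either.

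Snhg14 (chr7:58957672-59625507, - strand) is the long imprinted transcript of the Prader-Willi and Angelman region, with 65 exon blocks over its span, 9 annotated snoRNA genes and 199 further short genes without a symbol. It had 1035 reads untreated and 434 after Adriamycin, a log2 ratio of -1.28 (-1.45 to -1.12), 2.43-fold lower. Its far end runs antisense to Ube3a, the ubiquitin ligase gene of the region, and 6.91% of its exon bases lie in exons of that gene. Ube3a had 3981 and 1986 reads (-1.03), and Gm38393, which overlaps Snhg14 on the same strand, had 554 and 202 (-1.48). No strand setting is recorded for the counting, so reads where the exons of Snhg14 and Ube3a overlap are in neither count, and elsewhere unannotated RNA of one that crosses exons of the other cannot be told apart from it.

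The other hosts were closer to 0. Snhg20 had 809 reads untreated and 424 after Adriamycin, a log2 ratio of -0.96 (-1.13 to -0.79), just inside 2-fold. Snhg6 had 995 and 606 reads (-0.74), Snhg16 had 805 and 519 (-0.66), and Snhg1, which holds 8 annotated snoRNA genes, had 2908 and 1935 (-0.62, interval -0.70 to -0.53). Snhg12 had 1185 and 986 (-0.29), Snhg8 1500 and 1361 (-0.17), and Snhg17 1762 and 1613 (-0.16). Snhg11, with 974 and 963 reads, could not be told from 0 at this depth (-0.17 to 0.09), and Snhg15 alone lay above it, with 512 and 620 reads (0.25, 0.08 to 0.42). The annotated exons of Snhg1, Snhg12 and Snhg8 fill the whole gene span, so their counts hold unspliced RNA as well as the spliced form that decay removes. The same limit applies to Snhg20 (exons fill 94.8% of the span), Gas5 (91.3%), Snhg17 (89.5%), Snhg15 (83.2%) and Snhg11 (81.1%).

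Genes of the proteins that handle these RNAs were looked at beside the hosts. Of 18 genes for snoRNA-protein particles and their assembly, 5 were lower (27.8%, against 6.95% of all measured genes). None was higher and 16 lay below 0, with a median of -0.48. Nop56 had 17475 reads untreated and 7088 after Adriamycin (-1.33), and Nop58 had 12607 and 5496 (-1.23). Both are core proteins of the box C/D particles that the snoRNAs of Gas5 enter. Nolc1, a nucleolar chaperone of the particles, had 8775 and 4300 reads (-1.06), and Dkc1, the pseudouridine synthase of box H/ACA particles, had 14578 and 7415 (-1.0). With total counts 2 of the 18 were lower, since Nolc1 (-0.91), Dkc1 (-0.86) and Naf1 (-0.89) came inside 2-fold. Of 19 nonsense-mediated decay genes none was higher or lower, where 17.0% and 6.95% of all measured genes were. Their median was -0.32. Upper-quartile factors made 3 of these genes lower, a scaling for which no share over all genes is given here. Their most abundant members were Eif4a3, of the exon junction complex, with 13815 and 9971 reads (-0.50), and the helicase Upf1, with 12544 and 10248 (-0.32). Of 78 measured ribosomal protein genes 1 was lower (1.28%, against 6.95% of all measured genes), Rpl17 with 489 and 219 reads (-1.18). The median was -0.09, which became 0.06 with total counts. The hosts' median of -0.64 stayed below 0 under each scaling, from -0.76 to -0.49.

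**Figure D4:**
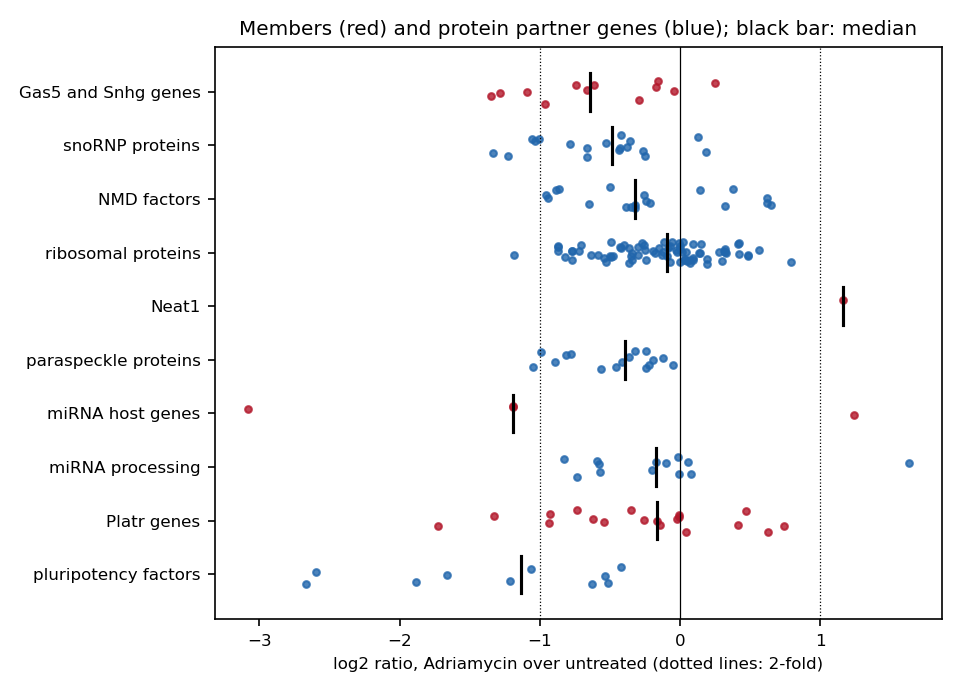
Log2 ratios (x axis) of the genes described here (red points) and of the genes for proteins that act with them (blue points), by group, with medians as black bars and dotted lines at 2-fold. The medians of the snoRNA hosts (-0.64) and of the snoRNA-particle proteins (-0.48) lie below those of decay factors (-0.32) and ribosomal proteins (-0.09).

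MicroRNA hosts were the least expressed class, with 4 of 12 measured, but all 4 were at least 2-fold apart, 3 lower and Mir22hg higher. Of all measured genes 6.95% were lower and 17.0% higher. Mir124a-1hg (chr14:64824780-64831410, + strand), whose miR-124 is typical of neurons, had 402 reads untreated and 48 after Adriamycin. Its log2 ratio was -3.08 (-3.56 to -2.66), the lowest of the 43 genes, while the nearest measured coding gene, the kinesin Kif13b, had 5725 and 3889 reads (-0.59). A second host of the same microRNA, Mir124-2hg, was under the measured level with 0 reads untreated and 14 after Adriamycin. Set against the 3 reads that a count of 0 allows, the 14 reads were 4.58-fold higher, a value that leaves out their own counting error. The counting interval of the log2 ratio of Mir124-2hg started at 1.70, or at 0.50 with counts divided by 2. The 2 miR-124 hosts therefore lay on different sides of 0, the second at very few reads.

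Mir17hg (chr14:115280311-115284159, + strand) carries the miR-17-92 cluster, whose seeds are shown above and which Myc is known to activate in human cells. It had 809 reads untreated and 361 after Adriamycin, a log2 ratio of -1.19 (-1.37 to -1.01), 2.28-fold lower. The nearest measured coding gene lay 1726125 bases away, so the locus has no close measured neighbour. Mir9-3hg (chr7:79149774-79184151, + strand) had the same ratio at fewer reads, 106 and 47 (-1.19, -1.73 to -0.69), and its interval reached well inside 2-fold. Polg, the mitochondrial DNA polymerase gene nearest to it, had 7587 and 5714 reads (-0.44).

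Mir22hg (chr11:75352365-75357502, + strand) had 100 reads untreated and 242 after Adriamycin. Its log2 ratio of 1.24 (0.91 to 1.6), 2.37-fold higher, was the highest of the 43 genes. Tlcd2, which overlaps it on the same strand over 206 exon bases, had 104 and 99 reads, with a log2 ratio of -0.10 (-0.51 to 0.31), so the neighbour did not share the higher level. Of 13 genes for microRNA processing and Argonaute proteins, 1 was higher (7.69%), Ago4 with 48 and 153 reads (1.63), and none was lower. Of all measured genes 17.0% were higher and 6.95% lower. Of the 13, 10 lay below 0 with a median of -0.17, or 7 with total counts. The core processing genes were among the 10, inside 2-fold and below 0 beyond counting error. Drosha had 13817 and 9481 reads (-0.57), its partner Dgcr8 had 3367 and 1931 (-0.83), Dicer1 had 9167 and 6255 (-0.58) and Ago2 had 13468 and 9125 (-0.59). Dgcr8 and Dicer1 were picked for mention after their values were seen.

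The remaining 8 genes act in the nucleus or cytoplasm as RNAs of their own, and all were measured. Neat1 (chr19:5874736-5895506, - strand, 1 exon block), the scaffold of paraspeckles and a known p53 target in mouse cells, had 3447 reads untreated and 7885 after Adriamycin. Its log2 ratio was 1.17 (1.11 to 1.22), 2.24-fold higher, with an interval wholly above 2-fold. Frmd8, the next measured coding gene, 4224 bases away on the same strand, had 3575 and 8634 reads and a ratio of 1.24 (1.19 to 1.30). Malat1 (chr19:5845718-5852700, - strand), a nuclear speckle RNA made from the same stretch of the chromosome, had 3703 and 4741 reads, with a log2 ratio of 0.33 (0.27 to 0.39), so the 2 RNAs were apart beyond counting error. The paraspeckle protein genes did not follow Neat1: all 16 lay below 0, with a median of -0.39. Of all 14871 measured genes, 7678 lay below 0. Rbm14 alone was lower (6.25%, against 6.95% of all measured genes), with 8333 and 4108 reads (-1.05). With total counts 14 of the 16 lay below 0 and Rbm14 came inside 2-fold (-0.90), while upper-quartile factors made 3 of them lower. The share of all genes past 2-fold under those scalings is not given here.

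Pvt1, which lies beside Myc, had 389 reads untreated and 638 after Adriamycin, a log2 ratio of 0.69 (0.50 to 0.87). Myc, 47612 bases away and the nearest measured coding gene, had 2230 and 1166 reads, with a log2 ratio of -0.96 (-1.07 to -0.86). Pvt1 and Myc thus lay on opposite sides of 0, beyond counting error and each within 2-fold. Norad, an RNA named for its activation by DNA damage and known to guard genome stability, had 2776 and 2174 reads (-0.38, -0.46 to -0.30). Firre, an X-linked RNA of nuclear architecture, had 2267 and 1853 reads (-0.32), Tug1 had 5456 and 4682 (-0.25), and Miat had 51 and 37, with an interval from -1.14 to 0.15.

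**Figure D5:**
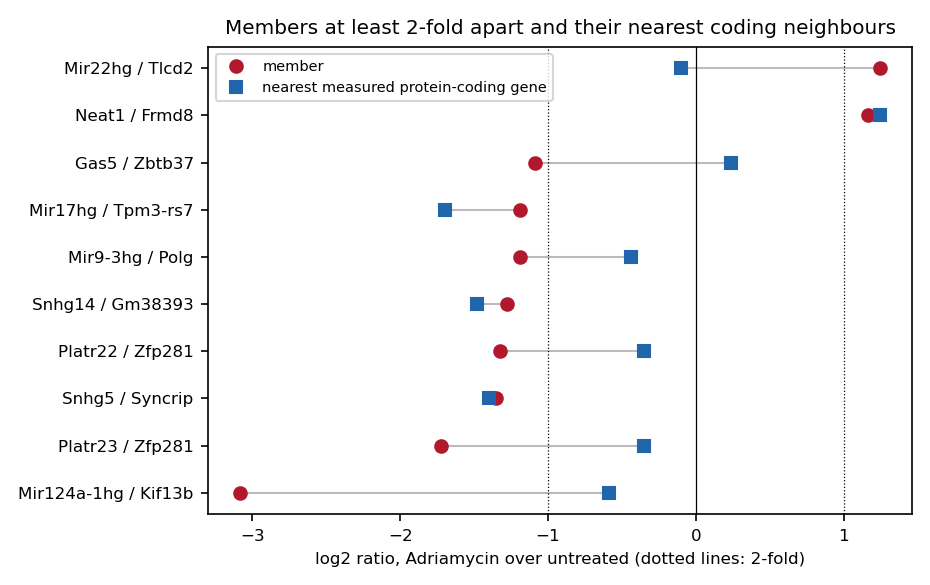
Log2 ratio (x axis, dotted lines at 2-fold) of each gene that was at least 2-fold apart (red circles) and of its nearest measured protein-coding gene (blue squares), joined by a line. Neat1 and Snhg5 lie close to their neighbours Frmd8 and Syncrip, whereas Mir124a-1hg, Platr23, Mir22hg and Gas5 lie more than 1 log2 unit from theirs.

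The 10 genes at least 2-fold apart can thus be read beside their neighbours. Neat1 with Frmd8, Snhg5 with Syncrip, Snhg14 with Gm38393 and Mir17hg with a distant gene, Tpm3-rs7 (160 and 50 reads, -1.70), were all past 2-fold in the same direction. For Platr22, Platr23, Mir9-3hg and Mir124a-1hg the neighbour lay on the same side of 0 and within 2-fold. Gas5 lay on the other side of 0 from its neighbour, and for Mir22hg the neighbour's interval held 0. Other pairs also parted: Platr7 had a ratio of 0.63 and its neighbour Ckap4 (6654 and 3055 reads) one of -1.15, and Platr11 (377 and 322 reads) had -0.25 while Eomes (609 and 119 reads), 72113 bases away, had -2.38. These last pairs, and Pvt1 with Myc, were picked for mention after their values were seen.

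Exons shared with other genes limit several counts. Of the 43 measured genes, 22 share exon bases with another annotated gene, and both higher genes are among them, with 1.85% of exon bases for Neat1 and 10.7% for Mir22hg. Among the lower genes, 15.2% of Mir17hg, 7.73% of Snhg14 and 3.96% of Snhg5 is shared, while Platr22, Platr23 and Mir9-3hg share none. Without the 22, 0 genes were higher and 3 lower of 21, where 17.0% and 6.95% of all measured genes were, with or without shared exons. The share among all genes without shared exon bases is not given here, so these counts do not show what sharing does to the calls. Snhg3 shows the limit at its strongest: 86.3% of its exon bases lie in other genes and it had 0 reads in both libraries, so its level cannot be read from these tables.

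Of the 22 genes under the measured level, those with at least 10 reads in a library were Platr28 with 53 reads untreated and 21 after Adriamycin, Mir100hg with 42 and 26, Snhg10 with 39 and 22, Snhg18 with 30 and 16, Platr8 with 25 and 24, Mir205hg with 11 and 15, Platr29 with 4 and 11, and Mir124-2hg. The other 14 had at most 5 reads in either library. At these depths a count of 0 allows up to 0.0754 CPM untreated and 0.0740 CPM after Adriamycin.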

How the data were processed

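The authors deposited 1 table of raw counts per library, whole-number reads per gene made with featureCounts 2.0.3 on GRCm39 (Ensembl release 105) with options for paired reads, per the file headers. The headers record no strand or overlap option, so by the default of featureCounts reads touching several genes were left out. These headers differ from the submitters' processing notes, which list builds mm9 and mm10, HISAT2 2.0.4, featureCounts 1.6.0, DESeq2 1.16.1, FastQC and Trim Galore 0.3.4. How RNA was selected was not given in the sources used here. Nor do those headers say whether a pair counts as 1 read; with counts divided by 2, the intervals of all 10 genes past 2-fold still excluded 0. No other value columns were present (0 unused).

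Symbols came from GENCODE M21 (52081 of 55414 identifiers) and, for Norad, Snhg16, Mir100hg and Mir205hg, from RefSeq synonyms; no identifier of the count tables carried the symbol Platr2. Libraries were scaled by TMM (edgeR 4.0.16, R 4.3.3; factors 0.951 and 1.05), and ratios used a pseudocount of 0.5 read for genes averaging at least 1 CPM. Intervals are exact conditional binomial intervals at 95% (scipy 1.17.1, Python 3.11.15). The computation was tested on simulated data. The genes and lists were chosen with earlier results of these data known. Every measured member could be named, with those past 2-fold and the 5 with the highest CPM per kb in full; from each protein list, up to 4 genes past 2-fold in a direction or otherwise the 2 with the highest counts. Of 27 microRNA genes within members, 21 are counted as matched in RefSeq's sequence table. Matches on chromosome 18, where Mir133a-1 and Mir1a-2 lie, were left out of that count. Alternatives were other scalings (with DESeq2 1.42.0 among them), filters, pseudocounts, members without shared exons, symbols of GENCODE M21 alone and a fold of 1.5. One list of protein genes is not reported here.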

Additional observations from a re-analysis of the deposited data

How the results depend on the processing

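No paired analysis was possible because each condition has 1 library, and for the same reason no library could be left out. Scaling by total counts moved the median log2 ratio of the 43 measured genes to -0.15, and upper-quartile factors moved it to -0.41; these scalings shift the median of all genes by 0.14 and -0.12. Total counts left Gas5 inside 2-fold (-0.95), and upper-quartile factors put Platr10 (-1.05), Platr6 (-1.05) and Snhg20 (-1.08) past it. At a mean of at least 5 CPM 1 gene was higher and 5 were lower of 30, and with no filter beyond 1 read 7 were higher and 11 lower of 60, where 29.2% and 14.7% of all genes were. Genes without shared exon bases gave 0 higher and 3 lower of 21, with no matching share over all genes given here. A fold of 1.5, chosen after the data were seen, gave 5 higher and 16 lower of 43, where 25.7% and 18.9% of all measured genes were. DESeq2 size factors, a pseudocount of 5 reads, and symbols from GENCODE M21 alone, also chosen after the data were seen, left 2 genes higher and 8 lower. Neither the median of these genes nor any gene past 2-fold changed sign under the alternatives tried. Of the values of single genes under other settings, 144 stayed within their counting interval and 28 moved beyond it. Few reads limit the calls of Platr22, Mir9-3hg and Mir22hg, whose intervals reach inside 2-fold, and the width of that of Platr23. The interval of Gas5 also ended just inside 2-fold, at -0.999.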
